A study of Mus musculus with 3 samples.

Results

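Replication-dependent histone cluster genes are the rows of the count table whose symbol begins with Hist1h, Hist2h, Hist3h or Hist4h and whose counts over the 3 libraries sum to 10 or more. Of 70 such rows among 46095 in the table, 30 met the rule. They comprise 4 H1, 4 H2A, 9 H2B, 5 H3 and 8 H4 genes. One of the H2B genes, Hist3h2bb-ps, is annotated as a processed pseudogene. Another 40 rows fell below the rule, 9 of them with no count in any library. At the boundary, Hist1h2ah, Hist2h2aa2, Hist1h4j and Hist2h3c1 had 10 counts in all, and Hist1h3a and Hist2h2bb had 9.

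RNA was sequenced from prostate tumors of TRAMP mice at 37 weeks of age. Mice of both groups, on a C57BL/6 background, express the viral SV40 oncoprotein in the prostatic epithelium. Phf8-KO comprised 2 libraries from male TRAMP mice born to Phf8 knockout females, and TRAMP comprised 1 library from mice labelled PHF8 wild-type. Each library was made from RNA of 3 mice pooled in equal mass, so the spread is between pools and TRAMP has no replicate. Whether the 2 Phf8-KO pools came from different mice is not given in the sources used here. Libraries held between 26747443 and 31876182 counts. Levels are given as CPM, the counts-per-million unit, on trimmed-mean-scaled library sizes, on which 3 counts correspond to 0.0905 to 0.113 CPM. In bulk tissue, fewer cells of a type and less RNA per cell cannot be told apart.

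Replication-dependent histones package newly made DNA. H2A and H2B pair as dimers and H3 and H4 form a tetramer, which together make the nucleosome core, and H1 binds the linker DNA. Their genes lie in clusters, mostly lack introns, and are transcribed with S phase under the coactivator NPAT. Their mRNAs usually end a few bases after a conserved stem-loop bound by SLBP, in place of a poly(A) tail. In human cells some of them, among them the counterparts of Hist1h1c, Hist1h2bc and Hist2h2be, are also made as polyadenylated mRNA, in differentiated cells in particular. PHF8 is a histone demethylase that binds methylated H3 lysine 4 at promoters. Whether the libraries were selected for poly(A) RNA is not given in the sources used here, so the levels below are those of histone mRNA as these libraries captured it.

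The stem-loop is shown because it is what separates these mRNAs from other mRNAs, and because the annotated distance from it to the transcript's end differs among the members. A search of GENCODE M21 transcripts (GRCm38) after the stop codon found it in 46 of the 70 rows and in 22 of the 30 members. The windows below run 5′ to 3′ on the transcript strand, with the 16 bases of the stem-loop in capitals and 5 bases on either side. The first 4 are the abundant H1 and H2B members in which it was found, followed by 1 H3 and 2 H4 members.
Hist1h1c: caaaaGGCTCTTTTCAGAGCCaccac
Hist1h2be: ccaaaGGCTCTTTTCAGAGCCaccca
Hist1h2bg: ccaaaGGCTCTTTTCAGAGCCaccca
Hist3h2ba: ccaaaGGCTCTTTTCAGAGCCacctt
Hist1h3g: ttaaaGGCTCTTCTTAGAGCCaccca
Hist1h4i: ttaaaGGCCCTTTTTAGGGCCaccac
Hist1h4d: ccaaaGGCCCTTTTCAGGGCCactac
They lie at chr13:23739512-23739527 (Hist1h1c), chr13:23585531-23585546 (Hist1h2be), chr13:23571843-23571858 (Hist1h2bg), chr11:58949349-58949364 (Hist3h2ba), chr13:23535889-23535904 (Hist1h3g), chr13:22040966-22040981 (Hist1h4i) and chr13:23581950-23581965 (Hist1h4d), in the 3′ untranslated part of the last exon. The stem followed the class of histone. The form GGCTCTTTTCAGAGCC stood in 26 of the 34 rows of H1, H2A, H2B and H3 with a stem-loop, and the rest of these differed from it in the loop alone. All 12 H4 rows with a stem-loop had another stem, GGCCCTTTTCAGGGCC in 7 of them.

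The annotated transcripts ran on for 840 bases after the stem-loop in Hist1h1c, 1861 in Hist1h2be, 169 in Hist3h2ba, 155 in Hist1h2bg, 330 in Hist1h4i and 770 in Hist1h4d, against 47 in Hist1h3g. Hist1h2bc (chr13:23684199-23692908, 2 exons) and Hist2h2be (chr3:96221119-96223738, 1 exon) had no match in their single annotated transcript, which extended 742 and 2192 bases past the stop codon. A poly(A) signal, AATAAA or ATTAAA, was then sought in the last 50 bases of the longest coding transcript. It stood in 10 of the 29 protein-coding members and in 72.4% of 21810 protein-coding genes. The windows below show it in capitals, with 10 bases on either side, in the members with a mean of 1 CPM or more that have it.
Hist1h1c: gtatgcttctAATAAAaagcgtttag
Hist2h2be: tattattattAATAAAgttaccgatt
Hist3h2ba: taatggtattAATAAAtttggttcaa
Hist1h4i: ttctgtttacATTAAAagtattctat
Hist1h2be: tgtgttccttATTAAAgcattcctga
The other members at that level, Hist1h2bc and Hist1h2bg, had neither form in their last 50 bases. Thus 5 of the 7 members with a mean of 1 CPM or more had a signal, and 5 of the 22 coding members below that level. The latter include 4 members annotated only to the stop codon, with almost no untranslated bases to search. A signal absent from the annotated end therefore does not show that the mRNA lacks one.

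**Figure D1:**
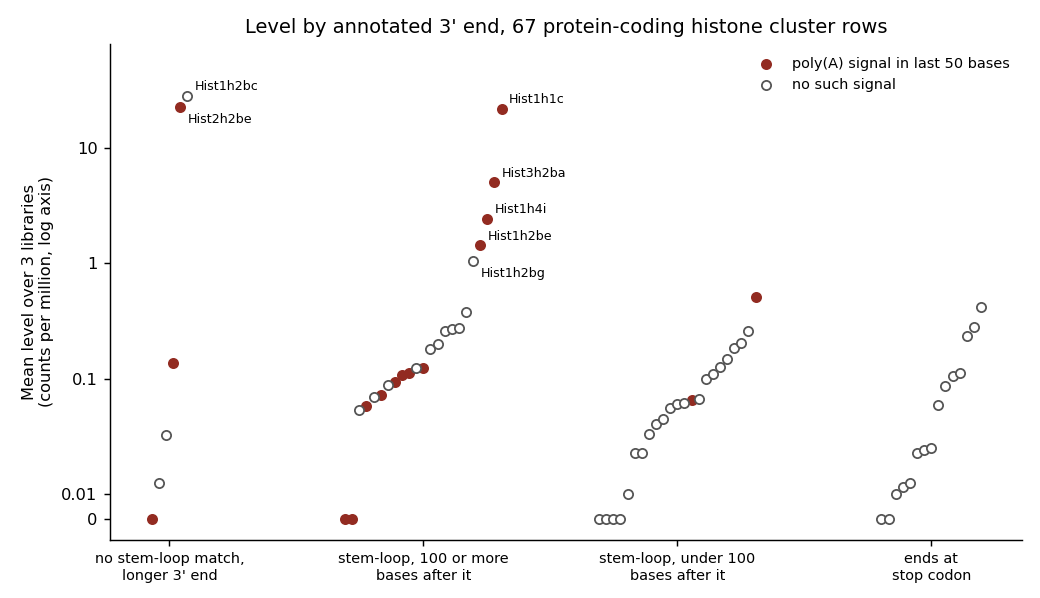
Mean level over the 3 libraries (CPM, log axis) of the 67 protein-coding histone cluster rows, grouped by annotated 3′ end. Each point is a gene and filled points have a poly(A) signal in the last 50 bases of the transcript. All 7 genes at 1 CPM or more are in the first and second groups from the left.

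The level of histone cluster genes differed between kinds of annotated 3′ end, grouped after the levels had been seen and given as a description. Of the 23 rows annotated for 100 or more bases past the stem-loop, 5 reached a mean of 1 CPM (range 0 to 22.0 CPM). Of the 6 rows with a longer 3′ end and no stem-loop match, 2 did (0 to 28.4 CPM). None of the 23 rows that end within 100 bases of the stem-loop did, the highest being Hist1h4h at 0.515 CPM. The 15 rows annotated only to the stop codon reached at most 0.418 CPM, in Hist1h4k. Per kilobase of exon, Hist1h2bc had a mean of 24.6 CPM, Hist1h1c 14.1, Hist2h2be 8.75, Hist3h2ba 8.21, Hist1h4i 3.35 and Hist1h2bg 1.70. Hist1h4k and Hist1h4h followed at 1.34 and 1.10 CPM per kilobase, and Hist1h2be, whose annotated exons cover 4446 bases, was 15th at 0.322. A longer annotated end also makes a longer exon, and its part in the order by CPM was not tested beyond these values per kilobase.

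Near-identical sequence limits what can be said of single members. The share of 50-base windows that also occur in another gene's transcripts was 0% for Hist2h2be, 8.54% for Hist1h1c, 22.1% for Hist3h2ba and 30.6% for Hist1h2bc. The median over the 30 members was 38.9%. It was 92.1% to 100% in the 4 H2A members and 100% in Hist2h3c1. In Hist1h2bq, Hist1h4m, Hist1h4n, Hist1h3e and Hist1h4k the share was 97.3%, 89.8%, 85.6%, 73.4% and 71.5%. The counts of all these members may be split with or lost to other copies. Exons of Hist1h2be and Hist1h1e overlap on the same strand, with each other or with the predicted gene Gm11398, over 496 bases. On the same strand, the predicted gene Gm20634 overlaps all 1825 exon bases of Hist2h3c1 and 529 of the 586 of Hist2h2aa1. Exons of Hist1h2af, Hist1h2ah, Hist2h2aa1 and Hist2h2aa2 overlap predicted genes on the opposite strand, and the strand setting of the counting is not given in the sources used here.

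**Figure D2:**
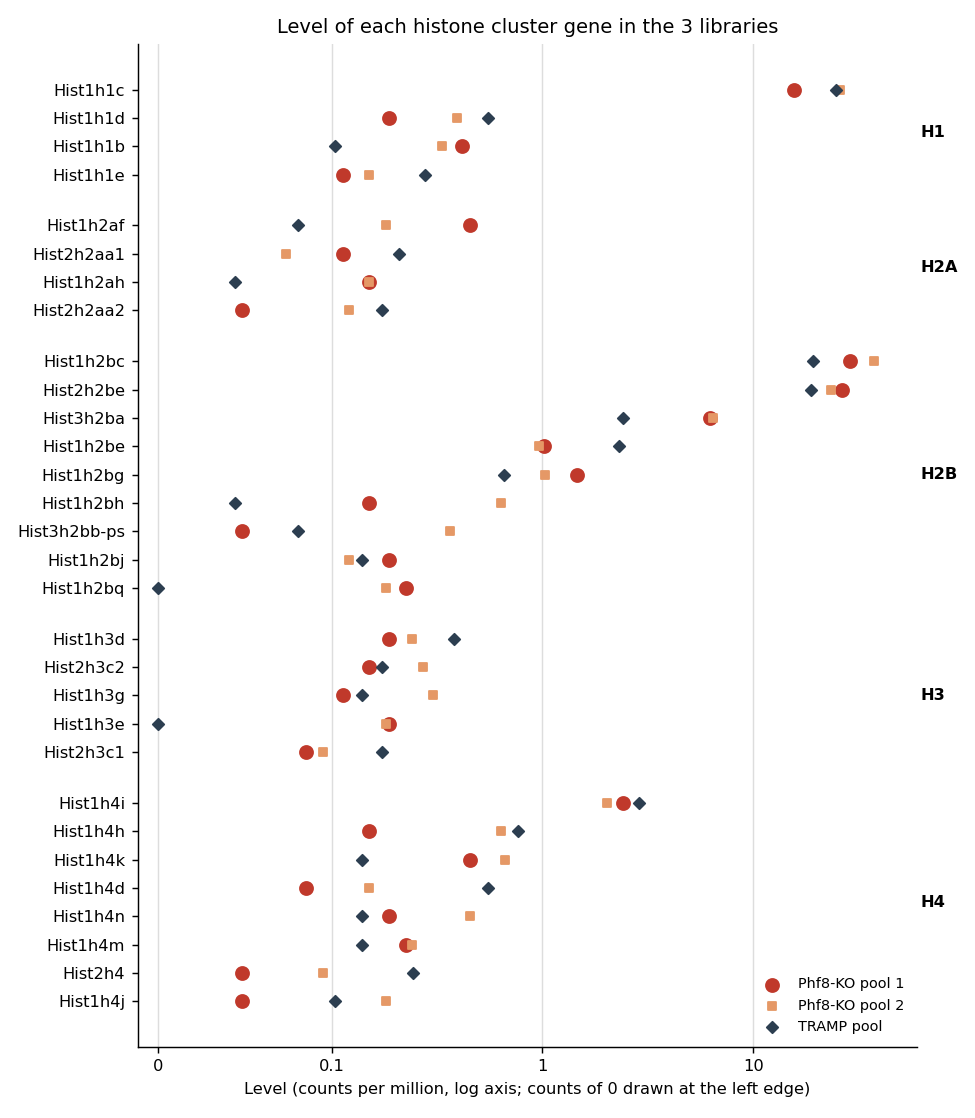
Level of each of the 30 histone cluster genes (CPM, log axis, counts of 0 at the left edge) in the 2 Phf8-KO pools (circles and squares) and the TRAMP pool (diamonds), by class. Hist1h2bc, Hist2h2be and Hist3h2ba lie to the right of TRAMP in both Phf8-KO pools, and Hist1h2be and Hist1h4i to its left.

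A few genes held most of the histone cluster counts in every library. The 30 members summed to 2290 and 3415 counts in Phf8-KO, against 2182 in TRAMP, or 85.9 and 103.1 CPM, against 75.5 CPM. Hist1h2bc, Hist2h2be, Hist1h1c and Hist3h2ba together made up 89.7% and 90.1% of these counts in Phf8-KO, against 86.2% in TRAMP. H2B genes took 75.1% and 68.4% in Phf8-KO, against 57.8% in TRAMP, while H1 genes took 19.0% and 25.8%, against 33.9%. H2A genes never took more than 0.873% and H3 genes never more than 1.15%. These are shares of the counts and say nothing of histone protein.

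**Figure D3:**
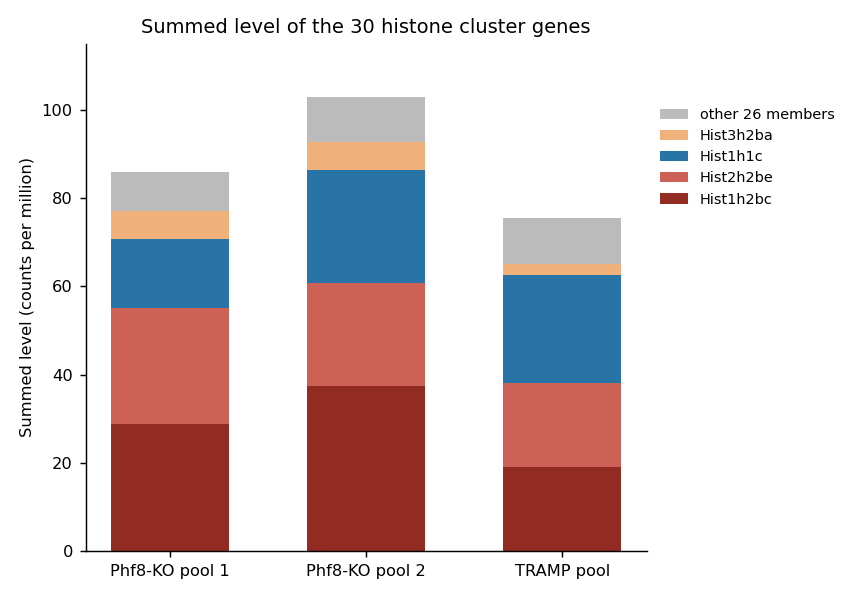
Summed level of the 30 histone cluster genes (CPM) in each library, split into the 4 most abundant members and the other 26. The bars reach 85.9 and 103.1 CPM in Phf8-KO and 75.5 CPM in TRAMP, and the other 26 members make up 8.82, 10.2 and 10.5 CPM of them.

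Levels were compared between Phf8-KO and TRAMP with edgeR's quasi-likelihood test over 18216 genes. A gene was called at a Benjamini-Hochberg adjusted p under 0.05 with a fold change over 2 or under 0.5. By that rule 0.0384% of all tested genes were called lower (7 genes) and 0% higher. Of the 30 members 17 passed the expression filter and were tested, and none was called in either direction. Some passed it only through the group in which they were high, among them Hist1h2bh, through Phf8-KO pool 2, and Hist1h4d, through TRAMP. Before adjustment, 2 members had p under 0.05 and a higher level and 0 a lower one, where 14.9% of all tested genes were higher and 12.2% lower by that measure. DESeq2 gave an adjusted p for 8 members and called none, while it called 9.42% of 16269 genes higher and 4.59% lower. Both Phf8-KO pools lay above TRAMP for 13 members and below it for 11, and for 6 they lay on either side. Over all 19509 genes with 10 or more counts these shares were 40.0% above and 42.9% below, so the counts of members on each side were near this background.

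The median log2 ratio to TRAMP over the 30 members was -0.17 in Phf8-KO pool 1 and 0.52 in pool 2, with 2 counts added before the logarithm, and 0.25 for the mean of the pools. Over all 19509 genes the median was -0.02 and -0.05. The sign of the members' median thus differed between the pools. By class, the medians in the pools were -0.79 and -0.19 for H1, 0.24 and 0.25 for H2A, 0.59 and 0.96 for H2B, -0.19 and 0.50 for H3, and -0.48 and 0.15 for H4. The median of H2B was above 0 and that of H1 below 0 in both pools, while those of H3 and H4 were on either side of 0. In H2A, 2 members lay above TRAMP in both pools and 2 below it, so the median stands for neither side. The summed level of H2B was 64.6 and 70.5 CPM in Phf8-KO, against 43.6 CPM in TRAMP. That of H1 was 16.4 and 26.6 CPM, against 25.6 CPM, and so lay on either side of TRAMP. As genes of a class share sequence and regulation and are not replicates, no test was made over a class.

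**Figure D4:**
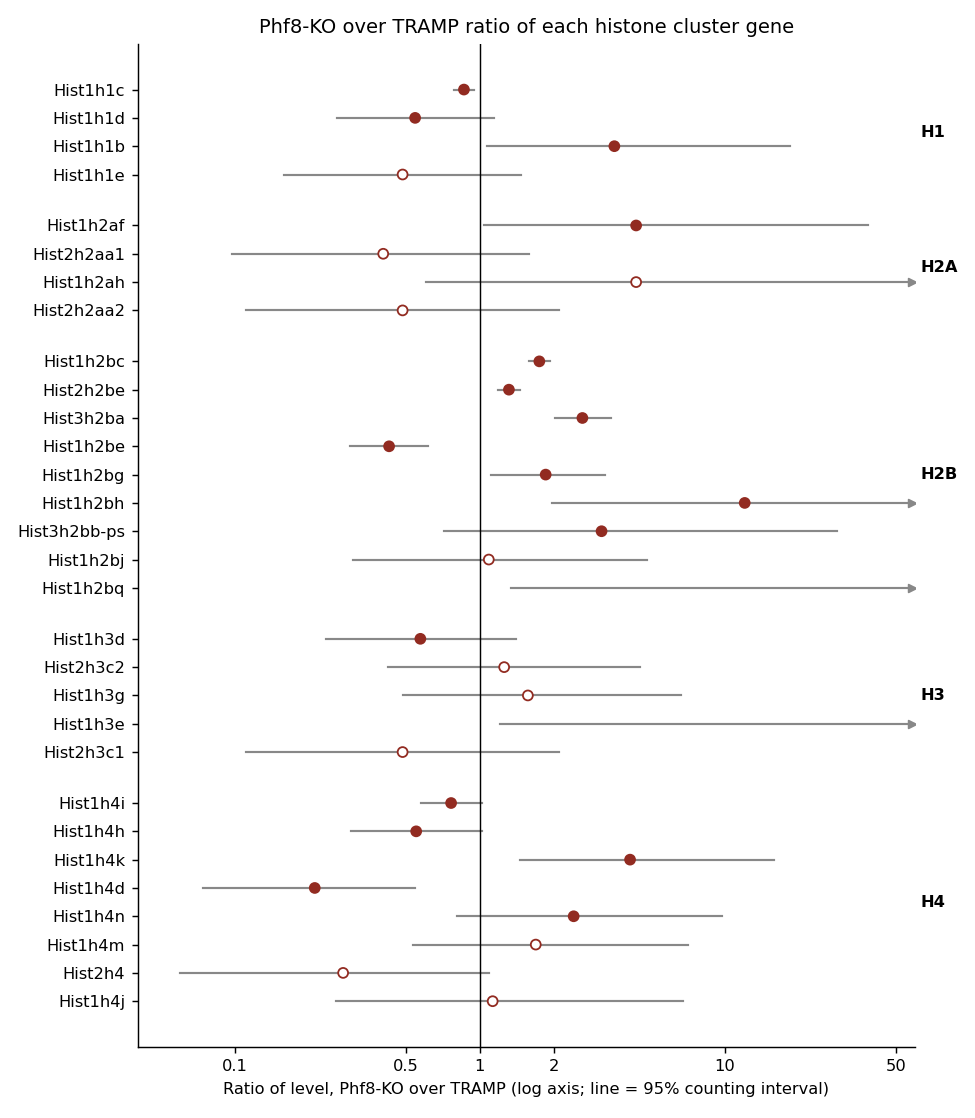
Ratio of level in Phf8-KO (both pools together) over TRAMP for each histone cluster gene (log axis), with the exact 95% counting interval as a line. Filled points were tested, open points had too few counts, and Hist1h2bq and Hist1h3e, at 0 in TRAMP, have a lower limit alone. The intervals of Hist1h2bc, Hist2h2be, Hist3h2ba, Hist1h2bg, Hist1h4k, Hist1h2bh, Hist1h1b and Hist1h2af and both lower limits lie above 1, and the intervals of Hist1h1c, Hist1h2be and Hist1h4d lie below 1. None of these genes was called across pools. Hist1h2bq and Hist1h3e met the count rule through Phf8-KO alone, so their lower limits are not evidence of a difference.

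Among linker histones, Hist1h1c, which encodes H1.2 and carries the RefSeq symbol H1f2, was the main gene. It had 15.7 and 25.7 CPM in Phf8-KO, against 24.6 CPM in TRAMP. Only pool 1 was apart from TRAMP, and the difference over both pools was within their spread (log2 fold change -0.25 ± 0.38 SE, adjusted p = 0.689 by edgeR). In the other pool alone it was 0.06, on the other side of TRAMP. The same pool 1 stood apart in smooth muscle markers, whose 10 genes summed to 5164 CPM there, against 391 CPM in pool 2 and 694 CPM in TRAMP, and the part of this in the Hist1h1c level was not tested. The further H1 genes were near the counting floor. Hist1h1d, encoding H1.3, had 5 and 13 counts in Phf8-KO, against 16 in TRAMP (log2 fold change -0.91 ± 1.08 SE, adjusted p = 0.613 by edgeR). Hist1h1e, encoding H1.4, had 3 and 5 counts, against 8, and was not tested. Hist1h1b, encoding H1.5, was the one H1 gene above TRAMP in both pools, with 11 and 11 counts in Phf8-KO, against 3 in TRAMP. Its ratio was 3.54, with a counting interval of 1.06 to 18.5, and it was not called (adjusted p = 0.414 by edgeR). Hist1h1t, the linker histone of the testis, had no count in any library.

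The promoter of Hist1h1c is shown as the window of the one abundant H1 member, for the motif that marks the H1 class. The RefSeq window (GRCm38.p6, chr13:23738557-23738856, plus strand) covers 250 bases before to 50 after the annotated start. Capitals mark the H1 box, AAACACA, and a CCAAT box.
Hist1h1c: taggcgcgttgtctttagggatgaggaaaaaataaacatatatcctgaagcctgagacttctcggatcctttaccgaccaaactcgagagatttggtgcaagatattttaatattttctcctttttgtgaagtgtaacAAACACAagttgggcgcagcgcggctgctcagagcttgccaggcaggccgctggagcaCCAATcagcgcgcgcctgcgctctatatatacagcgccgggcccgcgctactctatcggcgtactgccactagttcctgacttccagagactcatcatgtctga
Letters were searched on both strands in the windows of 26 members, the rest having no entry, and no motif overlapped another in the windows printed. The H1 box stood in 4 of 4 H1 members, in 0 of the 22 other members with a window, and in 7.18% of all 32851 windows. With the rows under 10 counts included, it stood in 5 of 6 H1, 2 of 18 H2A and 2 of 16 H2B rows. No H3 or H4 row with a window had it. CCAAT stood in every H1, H2A, H2B and H3 member with a window and in 1 of 7 H4 members, against 37.4% of all windows. These matches are letters in a window and were not tested for binding.

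H2A genes were scarce in all libraries. The 4 members summed to 20 and 17 counts in Phf8-KO, against 14 in TRAMP, with a ratio of 1.28 (counting interval 0.675 to 2.56). Hist1h2af, the only H2A member tested, had 12 and 6 counts in Phf8-KO, against 2 in TRAMP. Its ratio of 4.35 had an interval of 1.04 to 38.7 and it was not called (adjusted p = 0.427 by edgeR). Hist1h2ah had 4 and 5 counts, against 1. The other members are a pair of copies in the Hist2 cluster on chromosome 3, which share all of their windows with other transcripts. Hist2h2aa1 had 3 and 2 counts in Phf8-KO, against 6 in TRAMP, and Hist2h2aa2 had 1 and 4, against 5. The Hist1 members thus lay above TRAMP in both pools and the Hist2 members below it, at 10 to 20 counts in all for each gene. The counting intervals of Hist1h2ah (0.603 to 190.7), Hist2h2aa1 (0.0972 to 1.58) and Hist2h2aa2 (0.111 to 2.10) included 1. Hist1h2aa, a testis H2A, had no count.

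H2B genes held most of the counts and the members with the smallest p. Hist1h2bc (RefSeq H2bc4) had 28.7 and 37.3 CPM in Phf8-KO, against 19.1 CPM in TRAMP. Both pools were above TRAMP, with a mean of 33.0 ± 6.05 CPM (SD, n = 2). The log2 fold change was 0.79 ± 0.26 SE, with an unadjusted p of 0.0432 and an adjusted p of 0.174 by edgeR, so it was not called. Hist3h2ba (RefSeq H2bu2, chr11:58948920-58949533), from the small Hist3 cluster, had 6.27 and 6.43 CPM in Phf8-KO, against 2.42 CPM in TRAMP. The pools were close to each other and both more than 2-fold above TRAMP, and the ratio was 2.62 with a counting interval of 2.03 to 3.44. Its log2 fold change of 1.39 ± 0.48 SE had an unadjusted p of 0.0456 and an adjusted p of 0.177 by edgeR. Its adjusted p stayed between 0.142 and 0.201 over the alternatives, and that of Hist1h2bc between 0.105 and 0.200.

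Hist2h2be (RefSeq H2bc21), from the Hist2 cluster, had 26.5 and 23.5 CPM in Phf8-KO, against 18.9 CPM in TRAMP. Both pools were above TRAMP by a smaller amount (log2 fold change 0.40 ± 0.23 SE, adjusted p = 0.328 by edgeR). Hist1h2bg had 39 and 34 counts in Phf8-KO, against 19 in TRAMP (log2 fold change 0.91 ± 0.79 SE, adjusted p = 0.496 by edgeR). Hist1h2be was the one H2B gene below TRAMP in both pools. It had 27 and 32 counts in Phf8-KO, against 67 in TRAMP, a ratio of 0.426 with a counting interval of 0.295 to 0.613. Its log2 fold change was -1.23 ± 0.63 SE (adjusted p = 0.297 by edgeR). Hist1h2bg and Hist1h2be thus lay on opposite sides of TRAMP, and neither was called. Their stem-loop windows, printed above, have the same letters, and the part of the stem-loop in their levels was not tested.

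The remaining H2B members had few counts. Hist1h2bh had 4 and 21 counts in Phf8-KO, against 1 in TRAMP, the highest fold change of any tested member at 3.37 ± 1.87 SE on the log2 scale (adjusted p = 0.322 by edgeR). Most of it came from pool 2, and with pool 1 alone the log2 ratio was 1.09. Hist1h2bq had 6 and 6 counts, against 0, with a lower counting limit of 1.34 on its ratio, and was not tested. It met the count rule through Phf8-KO alone, so this limit is not evidence of a difference. Hist1h2bj had 5 and 4 counts, against 4, and showed no difference that this depth could detect. The pseudogene Hist3h2bb-ps had 1 and 12 counts, against 2, and so lay on both sides of TRAMP (adjusted p = 0.652 by edgeR). Hist1h2ba, the testis H2B, had no count. Without Hist1h2bc the H2B class still summed to 35.8 and 33.2 CPM in Phf8-KO, against 24.5 CPM in TRAMP.

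The promoter of Hist1h2bg is shown as that of an H2B member with the octamer that human and mouse H2B promoters are known for. The RefSeq window is chr13:23571150-23571449 (plus strand, GRCm38.p6). Capitals mark the octamer, ATTTGCAT, just before TATAAA, and CCAAT on both strands (ATTGG on the strand printed).
Hist1h2bg: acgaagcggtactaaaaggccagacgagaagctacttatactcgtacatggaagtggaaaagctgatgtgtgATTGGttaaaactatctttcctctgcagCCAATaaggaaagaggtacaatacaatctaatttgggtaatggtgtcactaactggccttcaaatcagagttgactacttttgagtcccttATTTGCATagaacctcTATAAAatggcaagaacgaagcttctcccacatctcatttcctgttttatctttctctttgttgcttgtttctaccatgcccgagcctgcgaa
The octamer stood in 2 of 6 H2B members and 1 of 4 H2A members with a window, in no H1, H3 or H4 member, and in 1.74% of all windows. Hist1h2be also had the octamer in 1 of its 2 windows. These 2 members, which had the octamer, lay on opposite sides of TRAMP, and the part of the octamer in their levels was not tested.

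H3 members had 10 to 24 counts each over the 3 libraries, and the class summed to 0.713 and 1.09 CPM in Phf8-KO, against 0.865 CPM in TRAMP. The pools lay on either side of TRAMP (ratio 1.06, counting interval 0.652 to 1.78). Hist1h3d, the only H3 gene tested, had 5 and 8 counts in Phf8-KO, against 11 in TRAMP (adjusted p = 0.662 by edgeR). Hist1h3g had 3 and 10 counts, against 4. Hist1h3e had 5 and 6 counts, against 0, with a lower counting limit of 1.21 on its ratio. As it met the count rule through Phf8-KO alone, this limit is not evidence of a difference. In the Hist2 cluster, Hist2h3c2 had 4 and 9 counts, against 5, and Hist2h3c1 had 2 and 3, against 5.

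Among H4 genes, Hist1h4i alone reached 1 CPM, and single members lay on both sides of TRAMP. It had 64 and 67 counts in Phf8-KO, against 83 in TRAMP, or 2.40 and 2.02 CPM, against 2.87 CPM. Both pools were below TRAMP, but the counting interval of the ratio of 0.763 reached 1.02 (log2 fold change -0.38 ± 0.56 SE, adjusted p = 0.688 by edgeR). Hist1h4d had 2 and 5 counts in Phf8-KO, against 16 in TRAMP, the lowest fold change of any tested member (log2 fold change -2.23 ± 1.17 SE, adjusted p = 0.301 by edgeR). Hist1h4h had 4 and 21 counts, against 22, so that pool 2 was close to TRAMP and pool 1 far below it. On the other side, Hist1h4k had 12 and 22 counts in Phf8-KO, against 4 in TRAMP (log2 fold change 1.98 ± 1.16 SE, adjusted p = 0.342 by edgeR). Hist1h4n had 5 and 15 counts, against 4, and Hist1h4m had 6 and 8, against 4, and both were above TRAMP in both pools. Hist2h4 had 1 and 3 counts, against 7, and Hist1h4j had 1 and 6, against 3. The 8 members summed to 3.57 and 4.44 CPM in Phf8-KO, against 4.95 CPM in TRAMP, with a ratio of 0.818 and an interval of 0.662 to 1.01.

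Genes of S phase, variant histones, histone chaperones and histone mRNA factors were set beside the histone cluster genes, from lists chosen for their function. In the list of 32 S phase genes, Phf8-KO lay above TRAMP in both pools for 31, against 40.0% of all genes. None was called by edgeR (smallest adjusted p 0.101), though 22 had higher values with p under 0.05 before adjustment, against 14.9% of all genes. DESeq2 called 14 of them higher, against 9.42%. Cdt1, which licenses replication origins, had 71.8 and 79.4 CPM in Phf8-KO, against 15.3 CPM in TRAMP (log2 fold change 2.31 ± 0.21 SE, adjusted p = 0.101 by edgeR). Uhrf1, a maintenance factor of DNA methylation, and the polymerase subunit Pold1 and the ligase Lig1 had log2 fold changes of 1.92, 1.92 and 1.84. Among 32 S phase genes the median log2 fold change was 0.78, against 0.01 over all genes tested. On the same measure it was 0.79 over the 17 tested histone cluster members, some of which passed the filter through 1 group. Over all 30 members only the median log2 ratio with 2 counts added, 0.25, is given, which is another measure. Of the histone cluster genes, 4 of the 7 at 1 CPM or more lay above TRAMP in both pools and 2 below it, as did 9 and 9 of the 23 under 1 CPM, which had few counts. The difference between the lists was not tested.

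Variant histones encoded outside the clusters also lay mostly above TRAMP. Their mRNAs are mostly polyadenylated and mostly not tied to S phase, though H2afx is also made in S phase as a stem-loop mRNA. Of 11 such genes, 9 did so in both pools, against 40.0% of all genes, and 6 had higher values with p under 0.05 before adjustment, against 14.9%. None was called by edgeR (smallest adjusted p 0.101) and 4 were called higher by DESeq2, against 9.42% of all genes. H2afx, the H2A variant phosphorylated at DNA breaks, had 46.4 and 58.8 CPM in Phf8-KO, against 9.93 CPM in TRAMP (log2 fold change 2.40 ± 0.27 SE, adjusted p = 0.101 by edgeR). H1fx, a linker variant, had 21.2 and 19.3 CPM, against 3.32 CPM, H2afv had 94.1 and 95.2 CPM, against 44.7 CPM, and the linker histone H1f0 had 406.4 and 505.4 CPM, against 191.9 CPM.

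Of 17 histone chaperones, 13 lay above TRAMP in both pools and 2 below it, where the shares of all genes were 40.0% and 42.9%. None was called by edgeR (smallest adjusted p 0.101), and 5 had higher values with p under 0.05 before adjustment, against 14.9% of all genes. By DESeq2, 3 were called higher, against 9.42%. Chaf1a and Chaf1b, subunits of the assembly factor that deposits H3 and H4 on new DNA, had log2 fold changes of 1.78 ± 0.20 and 1.12 ± 0.20 SE. Cabin1 and Asf1b followed at 1.11 and 0.88. Daxx, with 2 and 6 counts in Phf8-KO, against 2 in TRAMP, was not tested.

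Factors of histone mRNA transcription and 3′ end processing lay on both sides of TRAMP. Of 16 genes, 10 lay above it in both pools and 5 below, where the shares of all genes were 40.0% and 42.9%. None was called by edgeR (smallest adjusted p 0.101). Before adjustment 2 had higher and 1 lower values with p under 0.05, and by DESeq2 1 was called higher, none of which is above the shares of all genes (14.9%, 12.2% and 9.42%). Slbp, the stem-loop binding protein, had 141.7 and 159.0 CPM in Phf8-KO, against 105.0 CPM in TRAMP (log2 fold change 0.52 ± 0.20 SE, adjusted p = 0.207 by edgeR). Npat had 55.6 and 65.2 CPM, against 50.3 CPM, and Casp8ap2 (FLASH), which recruits the cleavage factors, had 45.3 and 54.1 CPM, against 53.8 CPM. Sympk, the scaffold of the cleavage complex, had the smallest p, with 68.3 and 77.1 CPM in Phf8-KO, against 29.0 CPM in TRAMP (log2 fold change 1.33 ± 0.21 SE, adjusted p = 0.101 by edgeR). Srrt and Cstf2t followed at log2 fold changes of 0.81 and -0.52.

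**Figure D5:**
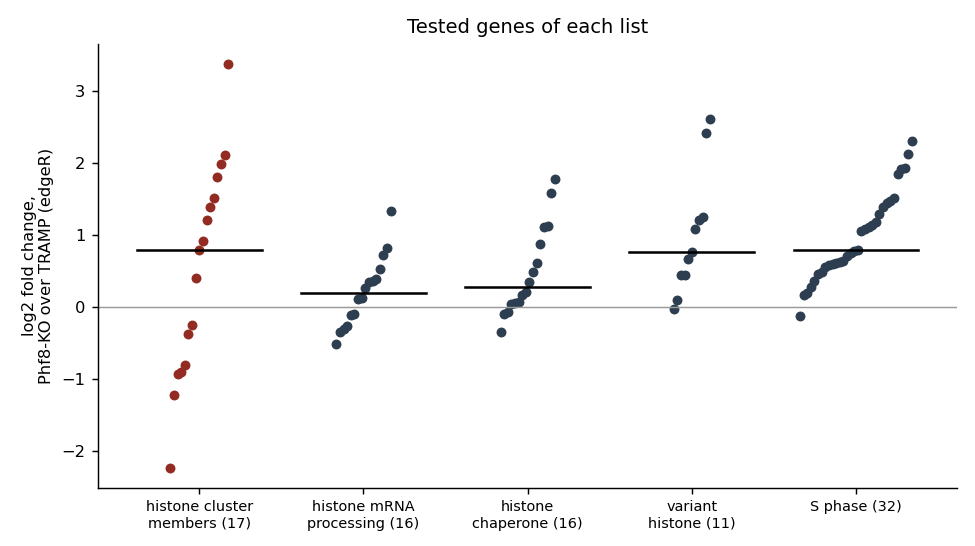
Log2 fold change, Phf8-KO over TRAMP, of each tested gene of the histone cluster members and 4 functional lists, with the number tested in parentheses and the median as a bar. The histone cluster genes at either end, Hist1h4d at -2.23 and Hist1h2bh at 3.37, had 23 and 26 counts in all. Of the 32 S phase genes, 31 lie above 0. The bar of the histone cluster genes, at 0.79, is over the tested members alone. The median log2 ratio with 2 counts added, another measure, was 0.64 over the tested members and 0.25 over all 30.

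The libraries differed in other ways that move with the groups. Phf8 itself had 14.98 and 15.94 CPM in Phf8-KO, against 19.42 CPM in TRAMP (log2 fold change -0.33 ± 0.25 SE, adjusted p = 0.438 by edgeR). As the deleted part of the gene is not given in the sources used here, this gene count does not check the genotype. Marker genes of skeletal muscle were below TRAMP in both Phf8-KO pools for 10 of 10 genes (sums of 74.6 and 17.6 CPM, against 1788 CPM), of adipocytes for 9 of 9 (43.3 and 42.2, against 779 CPM), of erythroid cells for 5 of 5 (98.4 and 68.0, against 393.9 CPM), of lymphocytes for 6 of 6 (24.0 and 12.8, against 73.3 CPM) and of neuroendocrine cells for 8 of 8 (12.7 and 11.4, against 146.0 CPM). Those of the seminal vesicle were above TRAMP for 9 of 9 (1458 and 2159, against 118.2 CPM). Among defining markers, Lep was at 0 counts in Phf8-KO pool 1, and Cidec and Retn were at 0 in pool 2. Of 9 prostate luminal markers, 3 lay above TRAMP in both pools and 5 below it (sums of 3635 and 3663 CPM, against 7604 CPM). Of the luminal keratins, Krt18 had 1305 and 1348 CPM in Phf8-KO, against 1557 CPM in TRAMP. Krt8 lay on the other side, with 683.3 and 736.0 CPM, against 552.1 CPM, as did Hoxb13, with 173.8 and 228.8 CPM, against 150.9 CPM. Secretory genes were far apart in both directions. Sbp had 12.01 and 339.6 CPM in Phf8-KO, against 3128 CPM in TRAMP, Azgp1 had 366.3 and 488.8 CPM, against 1566 CPM, and Tgm4 had 495.4 and 105.3 CPM, against 12.5 CPM. Their part in the levels of the histone genes was not tested.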

How the data were processed

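Total RNA of RIN above the labels' minimum was used for libraries by standard Illumina protocols. The authors aligned the reads with HISAT2 (GRCm38) and used HTSeq to count by gene. Counts were deposited without normalization. Versions, annotation release, strand setting and RNA selection are not given in the sources used here. Counts were tested in R 4.3.3 with edgeR 4.0.16 (quasi-likelihood, TMM, filterByExpr by group), with DESeq2 1.42.0 and limma 3.58.1 as alternatives, after checks on simulated counts. Benjamini-Hochberg adjustment was over all genes tested. The fit leaves 1 residual degree of freedom, all from the 2 Phf8-KO pools, whose spread is taken to hold for TRAMP. The standard error is the fold change divided by the square root of F. Counting intervals (95%, exact Clopper-Pearson, both pools together) and the floor of 3 counts cover counting error only. All 70 symbols matched a GENCODE M21 and a RefSeq gene. Stem-loops, shared windows and poly(A) signals were searched in GENCODE transcripts, and promoters in RefSeq windows.

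The members and lists were chosen with earlier results of these data known. Named genes were the 4 most abundant of each class, the 10 with the smallest p, at 1 CPM or more the 5 of largest fold change each way, members outside the Hist1 cluster, 3 testis genes, 3 genes known for polyadenylated mRNA, up to 4 genes of each functional list by p with Slbp, Npat and Casp8ap2, and Phf8. Other members were named to account for all.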

Additional observations from a re-analysis of the deposited data

How the results depend on the processing

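No member was called, higher or lower, under any of the scalings (RLE, upper quartile, library size alone), filters, DESeq2, limma-voom, the newer edgeR setting (legacy=FALSE), or with no fold-change threshold. Over all genes the counts did depend on the tool, with 7 lower and 0 higher by edgeR, 747 and 1533 by DESeq2, and 856 and 1430 by edgeR with no filter. RLE scaling called 8 lower and 0 higher, upper quartile scaling and legacy=FALSE each 10 and 0, and library size alone 19 and 1. Limma-voom and the mean CPM minimum of 1 called 0 genes in either direction. Where few or no genes were called at all, the lack of called members says little about the members. Upper quartile scaling moved the median of all tested genes to -0.14, against 0.01. No paired analysis was possible because TRAMP has 1 library, and no test could be made without a Phf8-KO pool. The median log2 ratio of all members ranged from -0.17 to 0.52 when a pool was left out, that of H1 from -0.79 to -0.19, H2B from 0.59 to 0.96, H3 from -0.19 to 0.50 and H4 from -0.48 to 0.15. That of the H2A members, 0.16, went to 0.075 with upper quartile scaling, 0.20 with library size alone, 0.52 with DESeq2, 0.31 with limma-voom, 0.49 with legacy=FALSE, 0.49 with no filter, 0.38 for the summed CPM, and 0.24 to 0.25 when a pool was left out. Over tested members alone, an alternative added after seeing the data, it was 1.39, and that of H3 turned to -0.67, since 1 member of each class was tested. The mean CPM minimum of 1 left no H2A or H3 member. Single members turned direction without a pool in 2 of 17 cases, Hist1h1c (0.060 without Phf8-KO replicate 1, -0.65 without replicate 2) and Hist3h2bb-ps (1.65 and -0.38). Depth limits 23 members, whose mean was under 1 CPM.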
